A study of Mus musculus with 6 samples.

Results

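The genes of cholesterol and fatty acid synthesis were followed across 6 colon arrays of mice with chemically induced colitis, 3 from animals lacking PPAR gamma in myeloid cells and 3 from control littermates. The set was a list of 31 genes written by name: 17 enzymes of sterol synthesis, 3 regulators (Insig1, Srebf1 and Srebf2) and 11 enzymes of fatty acid synthesis, elongation and desaturation. All 31 had at least 1 probe set that the platform annotation assigns to that gene alone, out of 18194 genes with such a probe set. All 31 also passed the filter on low values, a log2 value above 4 on at least 3 arrays, which left 10491 genes for testing. Each gene was represented by its probe set with the highest mean over the 6 arrays. Values are log2 expression summaries, so a difference of 1 is a doubling, and they were not compared between genes because probes differ in binding strength.

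All 6 mice were homozygous for the floxed receptor gene (PPAR g fl/fl). The deficient mice were also Lysozyme M cre+ and the controls were Lysozyme M cre-. All were C57BL/6 and 6 to 8 weeks old, received 2.5% dextran sodium sulfate (DSS) in the drinking water and were killed on day 7. DSS damages the colonic epithelium. No array came from a mouse without DSS. The Cre recombinase is driven by the lysozyme M promoter, which is active mainly in macrophages and neutrophils, while the RNA came from whole colonic tissue with all its cell types. Only the deficient mice carried Cre, so effects of Cre and of the lost receptor cannot be told apart. The replicates are labelled as biological, with 1 mouse per array, and their number limits the precision.

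Cells build cholesterol from acetyl-CoA through mevalonate, farnesyl diphosphate, squalene and lanosterol, and they build fatty acids from the same precursor through malonyl-CoA. Both routes are governed by the SREBP transcription factors, which are released from the endoplasmic reticulum when sterols are scarce. SREBP2 (Srebf2) acts mainly on sterol genes and SREBP1 (Srebf1) mainly on fatty acid genes, and Insig1 holds both back. The intestinal epithelium is a site of sterol synthesis, and adipocytes, in which PPAR gamma is the main regulator of fat storage, carry many of the fatty acid enzymes.

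The arrays were alike in range, with medians from 3.02 to 3.10, but not in tissue profile. Control replicate 1 and deficient replicate 3 carried small intestine genes: Apoa1 was at 15.23 to 15.46 on them against 3.82 to 7.38 on the other 4, and the ileal gene Fabp6 at 14.49 to 15.32 against 5.72 to 7.81. Of 6 tested colonocyte markers, 3 were lowest on both of these arrays, among them Car1, at 2.83 to 7.02 against 13.60 to 15.32 elsewhere. Hoxa10, also among these 3, was at 2.87 to 3.89 against 7.07 to 8.92. The other 3 were mixed, and Car4 was highest of all on deficient replicate 3, at 13.37. The labels name colonic tissue for all 6 arrays, and the word colon follows them throughout. Whether the 2 arrays with small intestine genes came from colon was not tested. Each genotype held 1 of them, and differences are also given among the other 4 arrays and between these 2. Control replicate 2 alone expressed Xist, at 12.11 against 2.25 on the rest. Pparg itself read 5.28, 9.91 and 9.54 on the control arrays and 8.77, 8.23 and 4.15 on the deficient arrays, differing by -1.19 (standard error 1.73, limma adjusted p 0.880). The difference was -1.22 among the 4 arrays and -1.13 between the 2, and with the tissue profile as a block the limma p was 0.00198 unadjusted and 0.273 adjusted. Lyz2, the lysozyme M gene whose promoter drives Cre, named here after its values were seen, was at 11.79 to 12.32 on the control arrays and 6.24 to 10.39 on the deficient arrays. Whether the Pparg probes lie in the deleted exons of Pparg is not given in the labels, so the deletion could not be checked from the Pparg values. In whole tissue, fewer cells of a type and less RNA per cell cannot be told apart.

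Upstream sequences were set beside the values because the sterol members varied together across the arrays, as described next. RefSeq sequences (GRCm38.p6) were matched for 25 of the 31 members, with 31 windows of the 250 bases before an annotated start. The windows were searched on both strands for CCAAT, the box bound by NF-Y, for TCACNCCAC, a sterol regulatory element bound by SREBPs, and for the E box CACGTG. The 4 windows shown are Hmgcs1 (chr13:119690101-119690350, plus strand) and Idi1 (chr13:8885356-8885605, plus strand), which are sterol enzymes high on the arrays with small intestine genes, and Fasn (chr11:120824548-120824797, minus strand) and Me1 (chr9:86695915-86696164, minus strand, the first of its windows), which had lower means in deficient colon. They are written 5′ to 3′ on the gene's strand, and capitals mark a match on either strand, where ATTGG is CCAAT read on the other strand.
Hmgcs1: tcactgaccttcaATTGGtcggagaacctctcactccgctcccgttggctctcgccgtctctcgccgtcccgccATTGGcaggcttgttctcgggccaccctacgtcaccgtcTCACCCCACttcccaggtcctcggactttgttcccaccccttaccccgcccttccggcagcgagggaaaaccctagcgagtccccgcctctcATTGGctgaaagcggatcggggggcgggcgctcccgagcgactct
Idi1: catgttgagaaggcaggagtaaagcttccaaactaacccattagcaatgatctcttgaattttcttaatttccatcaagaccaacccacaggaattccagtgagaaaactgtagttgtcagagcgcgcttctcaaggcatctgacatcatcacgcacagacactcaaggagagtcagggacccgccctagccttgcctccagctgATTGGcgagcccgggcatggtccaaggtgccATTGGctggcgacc
Fasn: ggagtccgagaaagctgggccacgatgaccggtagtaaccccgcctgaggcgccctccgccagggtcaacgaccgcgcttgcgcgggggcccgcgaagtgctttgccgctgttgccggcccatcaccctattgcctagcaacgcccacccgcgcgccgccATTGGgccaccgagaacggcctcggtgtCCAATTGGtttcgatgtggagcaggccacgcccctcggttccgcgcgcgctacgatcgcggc
Me1: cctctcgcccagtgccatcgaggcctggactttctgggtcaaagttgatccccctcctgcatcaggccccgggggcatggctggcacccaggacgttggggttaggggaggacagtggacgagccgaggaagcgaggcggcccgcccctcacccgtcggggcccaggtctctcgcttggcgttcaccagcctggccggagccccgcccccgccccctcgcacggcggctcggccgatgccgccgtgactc

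The Hmgcs1 window held 1 sterol regulatory element and 3 CCAAT boxes. The Idi1 window held 2 CCAAT boxes, close to the start. The Fasn window held 3 CCAAT boxes, a pair of which overlap on opposite strands, and the Me1 window shown held none of the motifs, though the other Me1 window had a CCAAT box. A CCAAT box was present in 22 of the 31 member windows (71.0%), while 33.8% of 32851 windows of all genes had one. All 14 matched sterol enzymes had it in at least 1 window, against 4 of 8 matched fatty acid enzymes. The strict sterol element was in 1 member window, that of Hmgcs1, and in 1.05% of all windows. The E box was in 5 member windows, of Hsd17b7, Insig1, Dhcr7, Sc5d and Elovl5, and in 6.02% of all windows. Such matches describe letters and are not evidence of binding.

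Sterol enzymes stood highest on the 2 arrays with small intestine genes, whatever the genotype. Both of these arrays were above all 4 others for 16 of the 17 enzymes, the exception being Dhcr7, whereas 13.9% of all 10491 genes had that order. Over all 31 members it was 18, and 0 members were lowest on both arrays, where 21% of all genes were. In control colon, replicate 1 exceeded the mean of replicates 2 and 3 by a median of 1.12 over the 17 enzymes, and in deficient colon replicate 3 exceeded the mean of replicates 1 and 2 by 0.82. The same medians over all genes tested were -0.02 and -0.09. On other probe sets above the filter, Hmgcs1, Mvk, Idi1, Fdft1, Cyp51 and Hsd17b7 kept the order with both arrays highest. Mvd, Lss and Sc5d did not. The second Mvd set read 6.49 on control replicate 1 and 6.53 on deficient replicate 1. On deficient replicate 3 the second Lss set read 5.58, against 5.63 on deficient replicate 1. The second Sc5d set read 6.65 there, against 7.00 on control replicate 3. The arrays had been set apart by Apoa1 and Fabp6 and not by these enzymes, and the comparison rests on 1 array per genotype and was not tested.

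**Figure D1:**
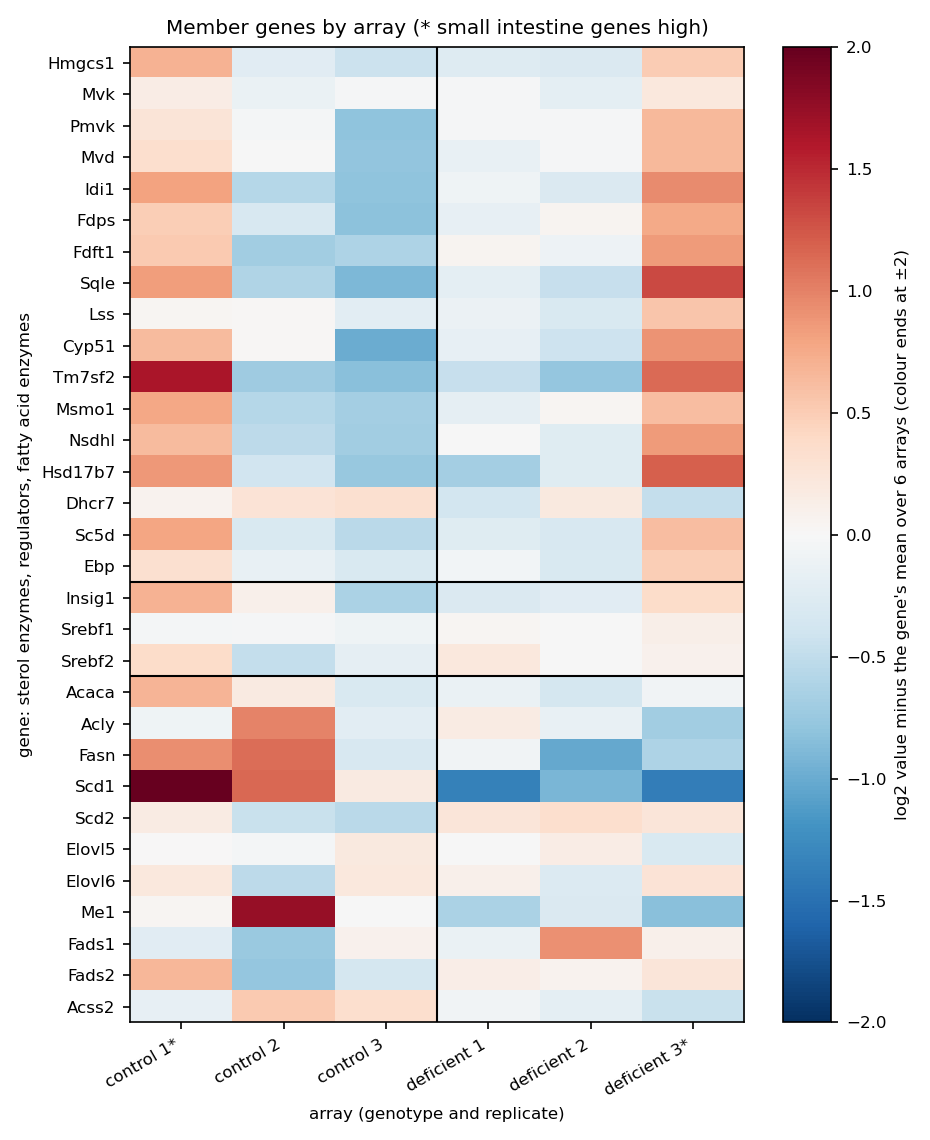
Each row is a member gene and each column an array, and colour gives the log2 value minus the gene's mean over the 6 arrays, ending at ±2. The first and last columns, control replicate 1 and deficient replicate 3, are red for 16 of the 17 sterol enzymes in the upper block, and in the lower block Scd1 is blue on all 3 deficient arrays.

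The first steps of the route, from acetyl units to isoprenoids, showed this order in every member on the probe sets used. Hmgcs1, the synthase that makes HMG-CoA, read 12.68, 11.76 and 11.56 on control replicates 1 to 3 and 11.73, 11.70 and 12.49 on deficient replicates 1 to 3. The groups overlapped almost entirely, at 12.00 ± 0.60 in control and 11.97 ± 0.45 in deficient colon (SD, n = 3 each). The difference was -0.03, with a 95% interval from -0.97 to 0.91. Mvk, the mevalonate kinase, had the narrowest spread of the enzymes in this stretch, from 6.11 to 6.51 over all arrays, and a difference of -0.01. Pmvk and Mvd, the next kinase and the decarboxylase, differed by 0.40 and 0.31, the same among the 4 arrays as between the 2.

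Idi1 and Fdps make the isoprenoid units and join them to farnesyl diphosphate. Idi1 read 10.79, 9.41 and 9.17 in control and 9.89, 9.68 and 10.92 in deficient samples. Its replicates 1 and 2 in deficient colon lay above the corresponding control arrays without small intestine genes, and its 2 highest arrays were the ones with small intestine genes. The difference was 0.38 with a standard error of 0.54. Fdps differed by 0.43, from 10.06 ± 0.66 to 10.49 ± 0.49 (SD, n = 3 each).

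Squalene is made by Fdft1, opened for ring closure by Sqle, the epoxidase, and closed to lanosterol by Lss. Fdft1 read 10.97, 9.75 and 9.83 in control and 10.50, 10.35 and 11.31 in deficient colon. Its difference of 0.53 was the largest among the 17 enzymes on the probe sets used. Second probe sets of Cyp51 and Mvd differed by 0.95 and 0.60. Within each tissue profile the deficient arrays were above the control arrays for Fdft1, by 0.63 among the 4 arrays and by 0.34 between the 2. The second Fdft1 probe set above the filter differed by 0.27. On that set control replicate 2, at 10.05, lay above deficient replicates 1 and 2, at 10.03 and 9.66. Sqle read 10.09, 8.65 and 8.36 in control and 9.06, 8.79 and 10.57 in deficient colon. Every deficient Sqle value exceeded the control values of its own profile. Its difference was 0.44, with an interval from -1.16 to 2.04, because the 2 profiles lay 1.59 apart in control and 1.64 apart in deficient colon. Lss differed by 0.10, with -0.11 among the 4 arrays and 0.52 between the 2.

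The conversion of lanosterol to cholesterol contained both the widest and the only opposite pattern. Tm7sf2, a sterol reductase, read 9.40, 7.06 and 6.93 in control and 7.31, 6.99 and 8.90 in deficient colon. Its arrays with small intestine genes were 2.41 higher in control and 1.75 higher in deficient colon, the widest gap of the 17 enzymes in each genotype, and its genotype difference was -0.07. Cyp51, the lanosterol demethylase, Msmo1 and Nsdhl, which remove further methyl groups, and Hsd17b7, a ketoreductase, differed by 0.22, 0.31, 0.40 and 0.18. Ebp, an isomerase, and Sc5d, a desaturase, differed by 0.09 and 0.04. Dhcr7, which makes the last double-bond reduction, read 8.63, 8.84 and 8.88 in control and 8.20, 8.76 and 8.09 in deficient colon. It was not raised on the arrays with small intestine genes and had the lowest genotype difference of the enzymes, -0.44 with an interval from -1.0 to 0.12, and the groups overlapped through deficient replicate 2.

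**Figure D2:**
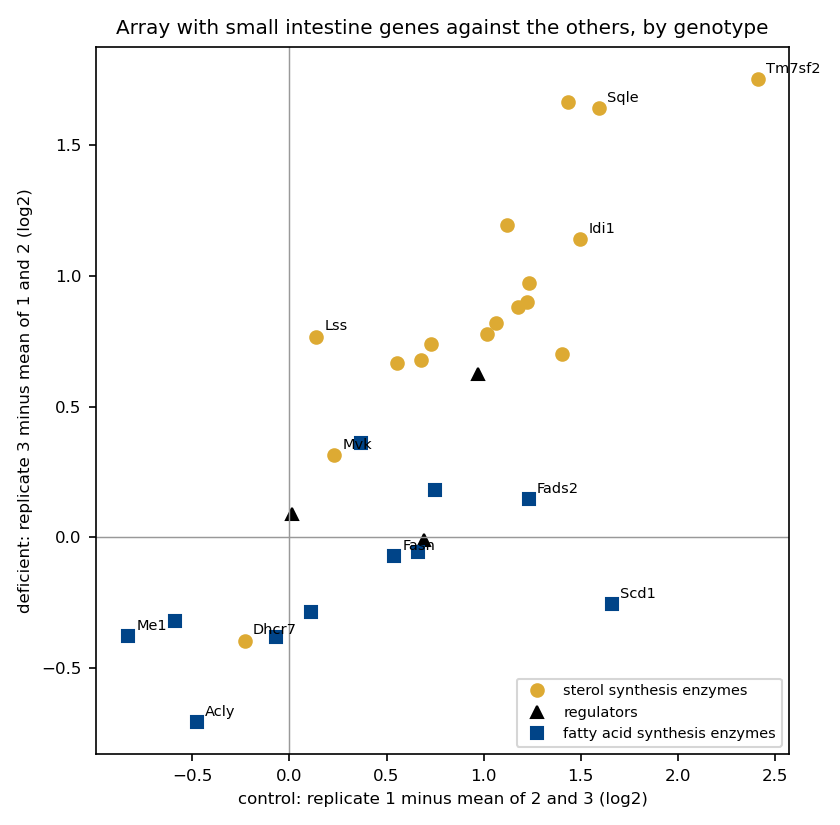
Each point is a member gene; the horizontal axis gives control replicate 1 minus the mean of control replicates 2 and 3, and the vertical axis deficient replicate 3 minus the mean of deficient replicates 1 and 2, both in log2. Sterol enzymes lie to the upper right, up to 2.41 and 1.75 for Tm7sf2, with Dhcr7 at -0.23 and -0.39, and fatty acid enzymes lie between -0.71 and 0.36 on the vertical axis.

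Markers of other cells moved with this order. All 6 tested small intestine enterocyte markers were highest on both of these arrays, of which Apoa1 and Fabp6 had served to choose the arrays and so had to be. The summed level of the 6, the log2 of the added linear values, to which those 2 genes belong, was 17.08 on control replicate 1 against 12.55 and 12.78 on the other control arrays, and 16.45 on deficient replicate 3 against 12.53 and 10.90. General epithelial markers summed to 16.82 against 16.28 and 16.23 in control, and to 16.51 against 16.39 and 16.31 in deficient colon, with 4 of 7 highest and 2 lowest on both arrays. Smooth muscle markers ran lower, at 14.40 against 15.75 and 15.63 and at 14.89 against 15.53 and 15.58, with 5 of 6 lowest on both arrays. The part of these cells in the sterol enzyme levels was not tested.

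Between genotypes no sterol enzyme passed the test. By limma with Benjamini-Hochberg adjustment over all 10491 genes, 0 of the 31 members and 0% of all genes had an adjusted p under 0.05. At an unadjusted limma p under 0.05, 2 members stood lower and 0 higher. Of all genes 2.36% were lower and 5.1% higher by that rule, together 7.46%, and neither of the 2 was a sterol enzyme. Of the 17 enzymes 13 had a higher mean in deficient colon, where 57% of all genes did, and their median difference was 0.22 beside 0.06 for all genes. The median was -0.01 without control replicate 3 and -0.11 without deficient replicate 3, so its sign rested on single arrays. For 10 enzymes the deficient side was higher both among the 4 arrays and between the 2, an order held by 33.1% of all genes. The limma intervals of all 17 contained 0.

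The regulators differed little. Srebf1 read 7.62, 7.63 and 7.58 in control and 7.70, 7.65 and 7.77 in deficient colon. Its deficient arrays all lay above its control arrays, but by 0.10 on average (standard error 0.14). The difference was 0.03 with quantile normalization of the arrays and 0.03 with median centring. Srebf2 read 8.49, 7.65 and 7.94 in control and 8.33, 8.12 and 8.21 in deficient colon, a difference of 0.19 that was 0.43 among the 4 arrays and -0.28 between the 2. Insig1, itself a target of SREBPs, followed the enzymes: 10.07, 9.46 and 8.73 in control and 9.07, 9.14 and 9.73 in deficient colon, highest on both arrays with small intestine genes. Its genotype difference was -0.11, with an interval from -1.06 to 0.85.

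Other genes of the sterol pathway, 20 by a list written for this comparison, were tested where a single-gene probe set passed the filter, which was so for 12. The others were not analysed here. None of the 12 passed, 6 had a higher and 6 a lower mean in deficient colon, and their median difference was 0.02. Nus1, a subunit of the dolichol-making prenyltransferase, and Lbr, a second sterol reductase of the nuclear membrane, were higher by 0.33 and 0.62 (limma adjusted p 0.685 and 0.695). Npc1, which exports cholesterol from lysosomes, had a difference of -0.48. Groups did not overlap for these 3 of the 12 genes, with 2 higher and 1 lower in deficient colon, where 9.36% of all genes were higher and 4.15% lower without overlap. Ggps1, which makes geranylgeranyl diphosphate, and Scap, the escort of SREBPs, had differences of -0.31 and -0.24. On both arrays with small intestine genes 3 of the 12 were highest and 3 lowest, where 13.9% and 21% of all genes were.

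Of the 11 fatty acid enzymes, 7 had a lower and 4 a higher mean in deficient colon, where 57% of all genes had a higher one. The 11 had a median difference of -0.37. For 7 of the 11 the deficient side was lower both among the 4 arrays and between the 2, an order held by 23.7% of all genes. These were the same 7 that had a lower mean. The median was -0.17 among the 4 arrays, -0.14 without control replicate 1 and -0.055 with array weights. In the weighted fit deficient replicates 1 to 3 had weights of 7.25, 0.50 and 0.47. Control replicates 1 to 3 had 0.38, 0.72 and 2.15, so that fit leaned on deficient replicate 1 and control replicate 3. The log2 of the summed linear levels of the 11 overlapped between groups, at 13.16 to 14.01 in control and 13.01 to 13.23 in deficient colon. Scd1 showed the largest difference of all 31 members and Scd2, its close relative, ran the other way. Groups did not overlap for 4 of the 31 members, Scd1 and Me1 lower and Scd2 and Srebf1 higher, where 4.15% of all genes were lower and 9.36% higher without overlap. None passed the limma test.

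Scd1, the desaturase that makes oleate from stearate, read 12.83, 11.66 and 10.68 on the control arrays and 9.15, 9.59 and 9.12 on the deficient arrays. Every deficient array was below every control array, and the control arrays were far apart while the deficient arrays were close together. The means were 11.72 ± 1.07 and 9.28 ± 0.26 (SD, n = 3 each). Scd1 thus differed by -2.44 (standard error 0.54), or 5.42-fold lower with a 95% interval of 2.14 to 13.7. The limma p was 0.00449 unadjusted and 0.659 adjusted. The difference was -1.80 among the 4 arrays, -3.71 between the 2, and between -2.96 and -1.89 when any 1 array was left out. A second Scd1 probe set did not pass the filter, at 6.16 on control replicate 1 and 3.07 to 3.42 on the other arrays.

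Scd2, a second stearoyl-CoA desaturase, read 11.61, 11 and 10.91 in control and 11.70, 11.79 and 11.69 in deficient colon. The deficient arrays were again close together and lay above all control arrays, with control replicate 1 nearly at their level. The difference was 0.55, with an interval from -0.01 to 1.12 (limma adjusted p 0.671), and it was 0.79 among the 4 arrays and 0.08 between the 2. The second Scd2 probe set above the filter differed by 0.52, but its groups overlapped, since control replicate 1 stood at 6.95 against 6.41 to 6.86 in deficient samples.

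Me1, the malic enzyme that supplies NADPH for fatty acid synthesis, read 7.28, 8.98 and 7.23 in control and 6.61, 6.95 and 6.40 in deficient colon. All deficient arrays were below all control arrays, and control replicate 2 stood well above the rest. The difference was -1.17 with a standard error of 0.51 (limma adjusted p 0.684), and -0.60 without control replicate 2. A second Me1 probe set differed by -1.29. Fasn, the fatty acid synthase, read 9.38, 9.56 and 8.12 in control and 8.37, 7.42 and 7.82 in deficient colon, so that control replicate 3 lay within the deficient range. It differed by -1.15, with an interval from -2.28 to -0.02 (limma adjusted p 0.667), and by -0.31 when arrays were weighted by limma.

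**Figure D3:**
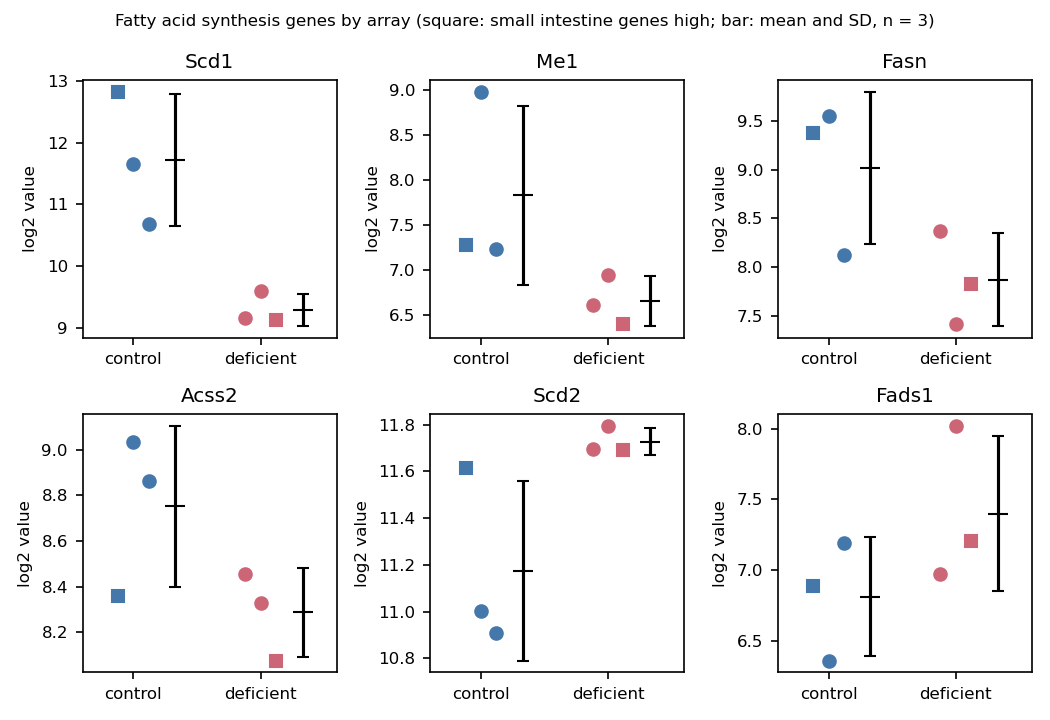
Panels plot the log2 value of 6 fatty acid genes on each array by genotype; squares are the arrays with small intestine genes, and the bars give mean and SD of 3 arrays. Scd1 and Me1 have all deficient points below the control points, Scd2 has them above, and the axes do not start at 0 because log2 values have no natural zero.

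The enzymes that supply the building blocks also had lower means. Acly, which makes cytosolic acetyl-CoA from citrate, read 10.67, 11.74 and 10.55 in control and 10.91, 10.61 and 10.06 in deficient colon, a difference of -0.46 with overlapping groups. Without control replicate 2 it was -0.08, and with array weights 0.02, so its sign was not kept. Acss2, which makes acetyl-CoA from acetate, read 8.36, 9.04 and 8.86 against 8.46, 8.33 and 8.07, a difference of -0.47 in which only deficient replicate 1 lay above a control array. Acaca, the carboxylase that makes malonyl-CoA, differed by -0.37, with -0.17 among the 4 arrays and -0.75 between the 2. Limma adjusted p for these 3 enzymes ran from 0.703 to 0.796.

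Elongases and front-end desaturases showed smaller or opposite differences. Elovl5 differed by -0.12 and Elovl6 by 0.07, with intervals from -0.57 to 0.33 and from -0.62 to 0.75. Fads1, the delta-5 desaturase of polyunsaturated fatty acids, read 6.88, 6.36 and 7.19 in control and 6.97, 8.02 and 7.21 in deficient colon. Deficient replicate 2 stood apart there, and the difference of 0.59 was 0.28 without it. Fads2, the delta-6 desaturase, was the only fatty acid enzyme highest on both arrays with small intestine genes, at 8.70 and 8.28 against 7.25 to 8.16 on the others. Its difference was 0.30, with 0.67 among the 4 arrays and -0.42 between the 2.

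**Figure D4:**
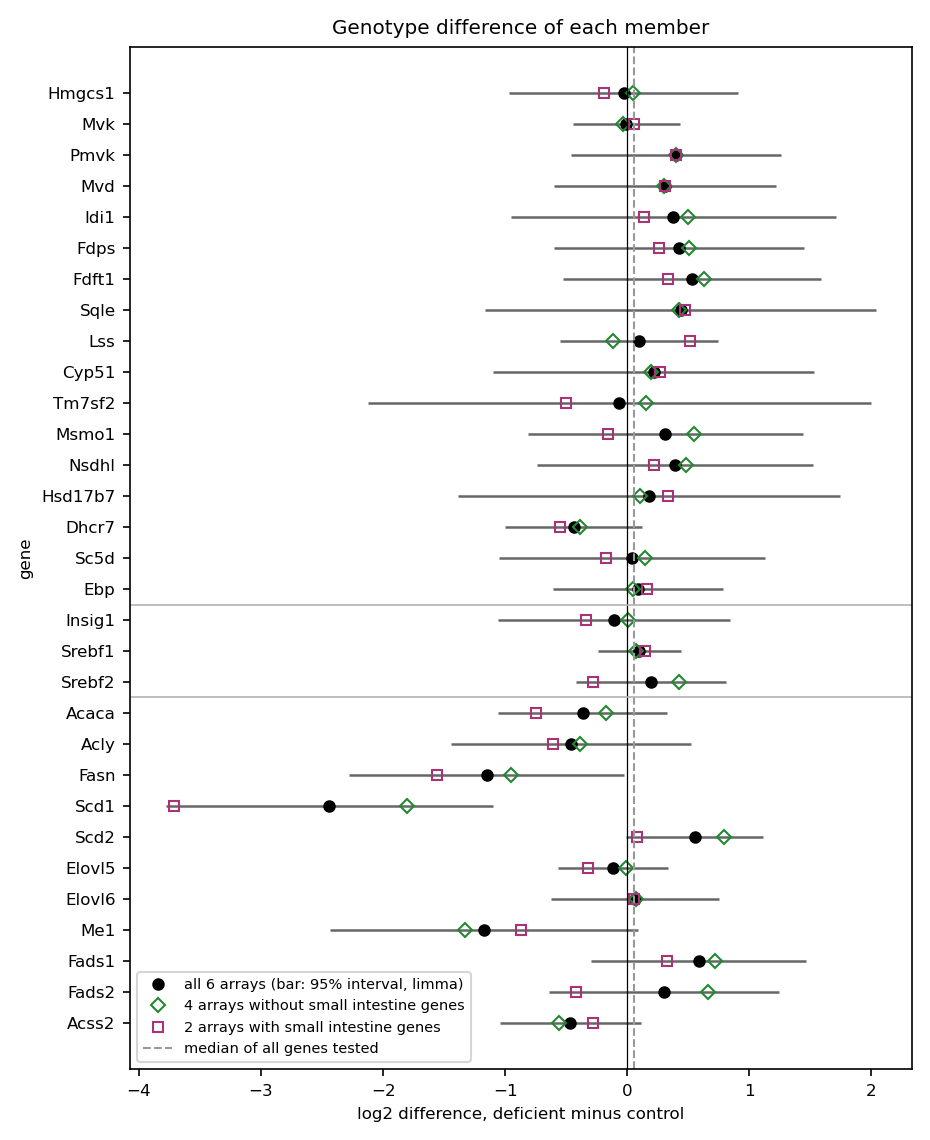
Black points give the deficient minus control log2 difference of each member over 6 arrays with its 95% limma interval, green diamonds the difference among the 4 arrays without small intestine genes and purple squares that between the 2 arrays with them. The intervals of Scd1 and Fasn exclude 0 and those of the other members contain it, and the dashed line is the median of all genes tested, 0.06.

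Adipocyte markers had lower means in the same group as Scd1, Me1 and Fasn. All 7 tested markers of 10 listed had a lower mean in deficient colon, with a median difference of -1.74, and 5 of them an unadjusted limma p under 0.05. Of all genes, 57% had a higher mean in deficient colon and 2.36% were lower at that unadjusted p. Their summed level was 14.04 to 15.12 in control and 13.06 to 13.71 in deficient colon, so the groups did not overlap. Adipoq, the adipocyte hormone adiponectin, read 10.15, 11.24 and 10.16 against 8.75, 8.16 and 9.43, while Lep was not above log2 4 on any array and Plin1 and Cfd were not analysed here. Control replicate 2, the only array that expressed Xist, was highest for Adipoq, as it was for Me1, Acly, Fasn and Acss2. Scd1 and Acaca were highest on control replicate 1 and Elovl5 on control replicate 3. Among the deficient arrays Adipoq was highest on replicate 3, where Scd1, Me1, Acly, Acss2 and Elovl5 were lowest. The part of fat tissue in these differences was not tested. Macrophage markers ran the other way, higher for 10 of 10, with summed levels of 11.85 to 12.56 in control and 12.65 to 13.74 in deficient colon, and so did proliferation markers, at 10.67 to 11.49 and 11.93 to 12.75. Neutrophil markers had the largest median difference of the marker lists, 3.33, with all 5 tested markers of 9 listed higher in mean. Of these, 4 had an unadjusted limma p under 0.05, where 5.1% of all genes were higher by that rule. The median was the value of Il1r2, at 3.28 to 3.64 in control and 4.55 to 9.28 in deficient colon. Il1r2 passed the filter only through the deficient arrays, so its direction was fixed by the filter, and it is among the 5 and the 4. Cxcr2 was not above log2 4 on any array. Summed levels of the neutrophil markers overlapped, at 6.73 to 9.50 in control and 8.66 to 13.25 in deficient colon. The part of these cells in the higher Scd2 and Fads1 values was not tested either.

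**Figure D5:**
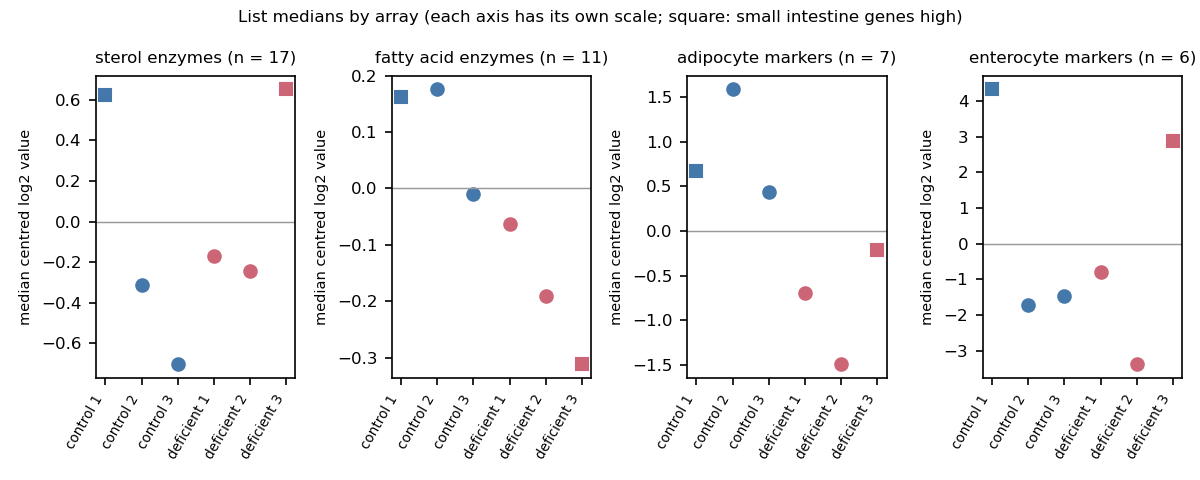
For each array the median over a gene list of the log2 value minus the gene's own mean over 6 arrays is plotted, for 17 sterol enzymes, 11 fatty acid enzymes, 7 adipocyte markers and 6 enterocyte markers, each panel with its own scale. Sterol enzymes and enterocyte markers are high on the arrays drawn as squares, at 0.63 and 0.65 for sterol enzymes, while fatty acid enzymes and adipocyte markers have lower centred medians on every deficient array than on any control array, for fatty acid enzymes by as little as -0.06 against -0.01.

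Further genes of fatty acid and glyceride synthesis, 33 by list, included 28 that were tested. Of these 19 had a lower and 9 a higher mean in deficient colon, with a median difference of -0.17, and 0 passed. At an unadjusted limma p under 0.05 there were 3 lower and 1 higher, where 2.36% of all genes were lower and 5.1% higher, and 57% of all genes had a higher mean. Thrsp, a nuclear protein that promotes lipogenesis in fat and liver, read 9.88, 9.87 and 7.36 in control and 4.19, 3.17 and 7.00 in deficient colon. It differed by -4.25 with a standard error of 1.18 (limma adjusted p 0.659), and its deficient replicate 3 came close to control replicate 3. Pnpla3, a lipid droplet enzyme induced by SREBP1, differed by -1.19 near the low end of the arrays, and Mlycd, which breaks down malonyl-CoA, by -0.66. Pgd, an NADPH-producing enzyme of the pentose phosphate route, was higher by 0.41, at 11.87 ± 0.04 in control and 12.28 ± 0.15 in deficient colon (SD, n = 3 each), and Hacd1 and Idh1 by 0.47 and 0.33.

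The probe sets of a gene gave a further look at these values. Of the 31 members 17 had more than 1 probe set above the filter, and the sign of the difference was the same on all of them for 12. The 5 with mixed signs were all sterol enzymes. Hmgcs1 ran from -0.17 to 0.12, Hsd17b7 from -0.21 to 0.18, Lss from -0.18 to 0.10 and Sc5d from -0.10 to 0.04. Mvk had the widest range of the 5, from -0.01 to 0.45. The probe sets used for Hmgcs1, Fdft1 and Hsd17b7 carry the suffix that marks possible cross-hybridisation. Those used for some other members, among them Mvd and Lss, carry other suffixes. With probe sets without suffixes only, Mvd differed by 0.60 and Lss by -0.18. In that setting 28 members were tested, and 9 sterol enzymes had a higher mean in deficient colon. With the tissue profile as a block in the limma fit, 5 members had an unadjusted p under 0.05, where 13.4% of all genes did. These were Scd1, Acss2 and Scd2 of the fatty acid enzymes and Fdft1 and Sqle of the sterol enzymes. Their adjusted p ran from 0.273 to 0.364, so no member passed in that fit.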

How the data were processed

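Total RNA of tissue labelled as colonic from 6 mice, 3 per genotype, was hybridised to Affymetrix mouse arrays. GCRMA is the summarisation method that the submitters' processing notes name, without version or settings. The authors deposited 1 value per probe set and array, on a log2 scale judging by the range of 2.25 to 16.2. GCRMA subtracts background, which can compress differences near the floor.

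Of 45101 probe sets, 34958 named 1 gene, 932 several and 9211 none; only the first were used. Probe sets above log2 4 on at least 3 arrays were kept, and each gene took the one with the highest mean. Genotypes, grouped by the sample titles, were compared by moderated two-sided tests without covariates (limma 3.58.1, R 4.3.3), with Benjamini-Hochberg adjustment over all genes. Arrays with Apoa1 and Fabp6 above log2 12 were taken as those with small intestine genes. The procedure was tested on simulated data. The members, lists and alternatives were chosen with earlier results of these data known. All members could be named, and of the other lists mainly the genes with the smallest p or, for markers, the highest mean. Alternatives covered filters, normalization, probe set choice, weights, blocks and left-out arrays.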

Additional observations from a re-analysis of the deposited data

How the results depend on the processing

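No member had an adjusted limma p under 0.05 in the reported fit, in 18 alternative settings or with every probe set on its own; the lowest was 0.0974, for Scd1 with array weights. Over all genes the count of calls was 0 except for 1 with probe sets without suffixes, 2 with array weights and 1 with every probe set on its own. At an unadjusted limma p under 0.05 there were 783 genes in the reported fit. The median of the fatty acid enzymes moved from -0.37 to -0.055 with array weights, and leaving out 1 array gave -0.41 to -0.14. The weights ran from 0.38 for control replicate 1 to 7.25 for deficient replicate 1. Leaving out 1 array gave -0.11 to 0.63 for the sterol enzymes and -0.11 to 0.43 for all 31 members. The sign was the same in every fit for 15 members, among them Scd1, Scd2, Me1, Fasn, Acss2, Fdft1 and Dhcr7. Srebf1 differed by 0.03 with quantile normalization and by 0.03 with median centring. The replicate block left 0 genes and 0 members called, with 437 genes at an unadjusted limma p under 0.05. Same-numbered deviations from the group means correlated at -0.52, 0.36 and -0.58. The 2 arrays with small intestine genes bear different numbers and correlated at 0.68. These values therefore cannot show whether the numbers pair the arrays. With 3 arrays per group, the intervals were over 1 log2 unit wide for most members.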

Other observations

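Genes that re-esterify absorbed fat differed widely between the arrays, and are named here after their values were seen. Mogat2, which makes diglyceride from monoglyceride in enterocytes, read 11.90 in the first control sample and 10.75 in the third deficient one, and 6.16 and 5.40 on the other control arrays and 4.56 and 4.11 on the other deficient arrays. Dgat1, which makes triglyceride, stood at 12.19 and 11.40 on the arrays with small intestine genes and at 8.04 to 8.72 on the other 4. The genotype differences of both were smaller than their spread, at -1.35 with a standard error of 2.46 and -0.09 with a standard error of 1.35.

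Mlxipl, which encodes the glucose-responsive factor ChREBP, was lower in deficient colon within each profile. It read 6.47 and 6.48 in control against 5.81 and 5.35 in deficient samples among the 4 arrays, and 8.90 against 7.51 between the 2. Over all 6 arrays it differed by -1.06 with a standard error of 0.87 (limma adjusted p 0.789), and it too is named after its values were seen.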
